A study of Homo sapiens with 24 samples.

Results

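The genes described here are 10 stress regulators and effectors of the ATF4 axis, taken by symbol from the 25082 genes of the deposited table: ATF4, ATF3, DDIT3, ATF5, TRIB3, CHAC1, DDIT4, SESN2, ASNS and STC2. All 10 passed the filter on low values, as did 20154 genes in all. Poly(A) RNA came from SET2, an established human megakaryoblastic cell line derived from a myeloproliferative neoplasm that depends on JAK2 signalling, grown in RPMI1640 with 20% FCS. The 24 libraries form 8 groups of 3: naive cells without inhibitor, 4 persistent lines, each grown without a break in BMS911543, CYT387, INC424 or SAR302503, all type I inhibitors of JAK kinases, and naive cells exposed to the vehicle DMSO for 4 h, to INC424 for 4 h or to INC424 for 48 h. Type I inhibitors bind the active conformation of the kinase; INC424 is ruxolitinib, CYT387 momelotinib and SAR302503 fedratinib, while BMS911543 is a JAK2-selective compound. All groups share the parental line, each persistent state is represented by 1 line, and the labels give neither inhibitor concentrations nor a DMSO control at 48 h. Nor do they state that replicates came from separate cultures; p-values therefore reflect the spread between these libraries, which may be technical.

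ATF4 is the transcription factor of the integrated stress response. Kinases that sense amino acid shortage, unfolded protein in the endoplasmic reticulum, haem deficiency or viral RNA phosphorylate the initiation factor eIF2 alpha, which lowers general translation while raising translation of ATF4 mRNA. ATF4 protein then binds C/EBP-ATF response elements and induces genes for amino acid supply and redox balance, together with further regulators such as ATF3 and DDIT3, so that the RNA level of ATF4 itself is not a measure of its protein.

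The response element is the sequence feature through which these genes are known to be linked, so the promoters that hold its core are shown first. The 250 bases upstream of each RefSeq start (GRCh38.p14, not the build of the deposited table) were searched on both strands for the core TGATGNAA, and the 10 genes had 18 promoter windows in the RefSeq table, since 6 genes have more than 1 start. The core stood in 3 of these 18 windows, upstream of ATF3, ASNS and CHAC1, and in 3.14% of all 35116 windows. Counted by gene, with any window sufficing, it was in 3 of the 10 and in 3.89% of 27305 genes. The stretches run 5′ to 3′ along the gene's own strand, and capitals mark the core or, for CHAC1, its reverse complement.
ATF3, chr1:212565176-212565263, plus strand: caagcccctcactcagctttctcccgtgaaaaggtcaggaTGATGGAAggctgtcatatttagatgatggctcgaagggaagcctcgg
ASNS, chr7:97872429-97872516, minus strand: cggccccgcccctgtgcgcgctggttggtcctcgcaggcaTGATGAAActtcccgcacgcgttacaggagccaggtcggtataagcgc
CHAC1, chr15:40953222-40953309, plus strand: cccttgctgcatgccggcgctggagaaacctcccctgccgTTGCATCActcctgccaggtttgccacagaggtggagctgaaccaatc
The cyclic AMP response element TGACGTCA stood upstream of none of the 10 genes and of 2.03% of all genes. The AP-1 site TGANTCA stood upstream of DDIT3 and ATF5 (8.06% of all genes), and the hypoxia response core ACGTG upstream of DDIT4 and ATF4 (21.7%). Counted by window, each stood in 3 of the 18, beside 6.57% and 18.5% of all windows. The endoplasmic reticulum stress element was found upstream of none, against 0.0916% of all genes. A match describes letters in the window and not binding, and no match says only that the letters are not in it.

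Libraries held 21770721 to 36160750 reads assigned to genes. Values are normalised read counts, below also called reads, and group values are the mean ± SD of 3 libraries (n = 3); they are not divided by gene length, so levels are compared between groups and never between genes. Differences are fitted log2 differences of the normalised count plus 1, and "higher" and "lower" as verdicts refer to limma with Benjamini-Hochberg adjustment over all 20154 genes tested. Summed over 12 markers, the megakaryoblastic lineage took 0.356% to 0.862% of reads in every library, with at most 1 marker at 0. Library 2 of the CYT387 persistent group differed from the rest: 10 markers of squamous epithelium took 0.431% of its reads, against at most 0.0971% in any other library. In the same library 9 markers of stroma and vessel took 0.761%, against at most 0.0261% elsewhere, and the lineage markers took 0.356%, the lowest value, against 0.83% and 0.842% in the other libraries of that line. Calls that use the CYT387 persistent line are given with and without that library. It enters other comparisons through the shared spread, and some of their calls are given both ways. Those that use the SAR302503 persistent line are not. Shares of all genes tested come from the fit with all 24 libraries unless stated.

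In the INC424 persistent line, 8 of the 10 genes were higher than in the BMS911543 persistent line and 0 were lower, where 8.73% of all genes tested were called higher and 7.79% lower (limma). Against INC424 for 48 h, 8 were again higher and 0 lower, beside 14.5% and 15.4% of all genes tested. With each group first set against its own control, naive cells or DMSO for 4 h, the second count was 4 higher and 1 lower. Of all genes tested, 14.7% were higher and 17.1% lower on that measure. The 8 were ATF4, ATF3, DDIT3, TRIB3, CHAC1, DDIT4, SESN2 and ASNS in both comparisons, which share the INC424 persistent libraries. The median log2 difference over the 10 genes was 1.98 against the BMS911543 persistent line (-0.00 over all genes tested) and 3.26 against 48 h (-0.02 over all genes tested). Every INC424 persistent library exceeded every BMS911543 persistent library for 9 of the 10 genes (22.2% of all genes tested) and every 48 h library for 9 (26.6% of all genes tested).

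**Figure D1:**
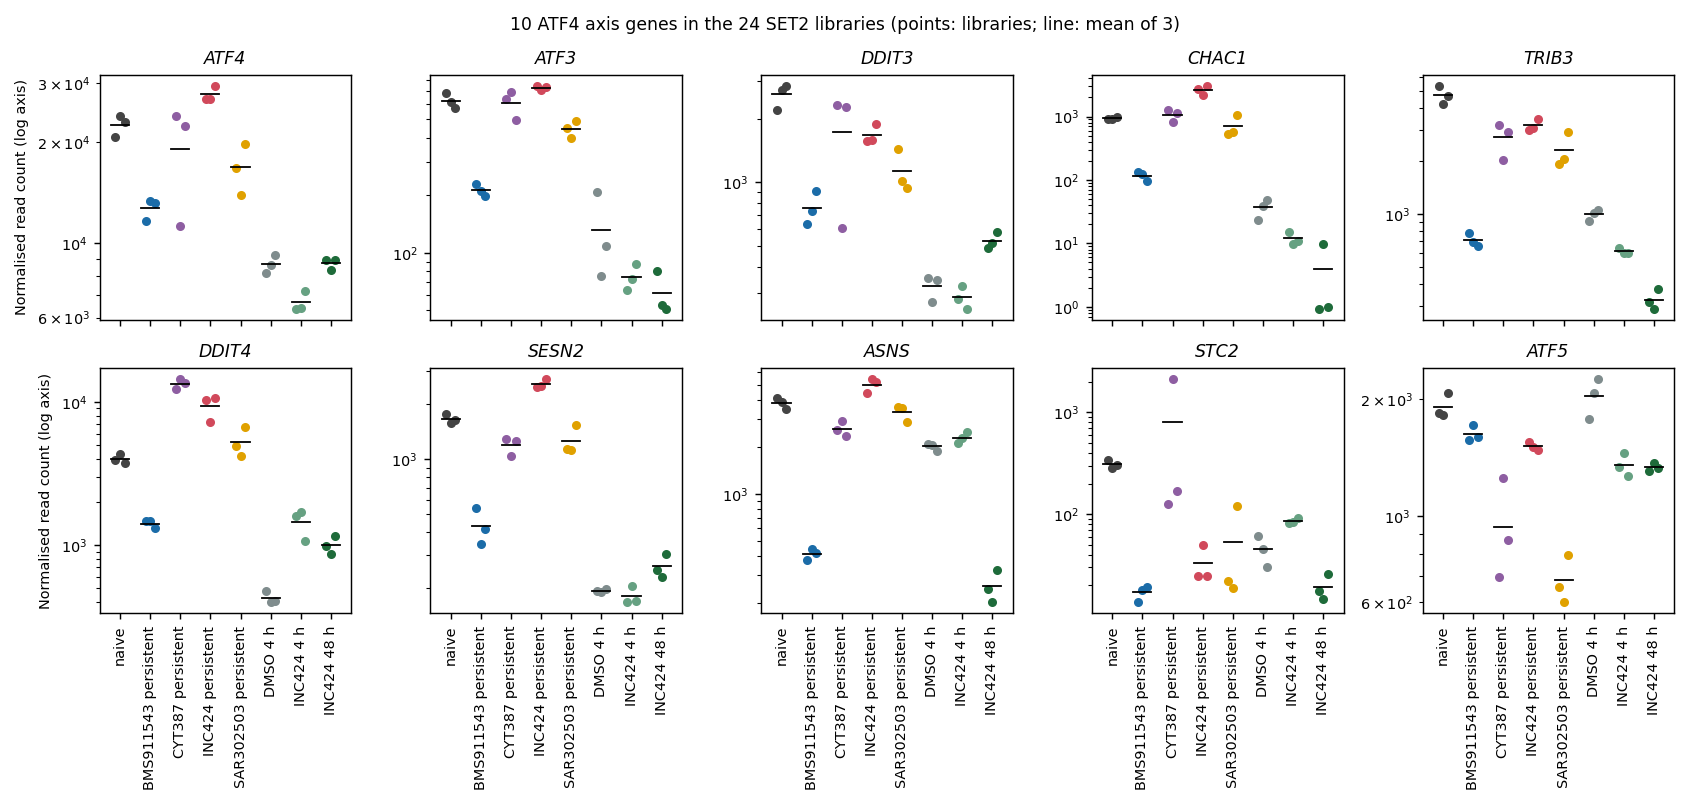
Normalised read count (log axis) of each of the 10 genes in each of the 24 libraries, by group. Points are libraries and the black line is the mean of 3. The BMS911543 persistent line lies below the 3 other persistent lines for ATF3, TRIB3, CHAC1, DDIT4, SESN2 and ASNS, and ATF5 shows the narrowest range of group means, 2.98-fold.

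ATF4, the activator at the head of the axis, was counted at 27020, 26910 and 29550 in the 3 INC424 persistent libraries, at 11650, 13350 and 13230 in the BMS911543 persistent libraries and at 8939, 8329 and 8907 after 48 h of INC424. The INC424 persistent line had the highest ATF4 in the series and its libraries overlapped with no other group. The log2 difference was 1.13 (SE 0.19, adjusted p = 0.00018) against the BMS911543 persistent line and 1.67 (SE 0.19, adjusted p = 4.7e-07) against 48 h. The second call ended with each group set against its own control (0.29, adjusted p = 0.44). Across the 8 groups ATF4 ran from 6658 ± 465 after 4 h of INC424 to 27830 ± 1490, a 4.18-fold range. The DMSO and 48 h groups overlapped. The CYT387 persistent libraries (23920, 11230 and 22360) overlapped the BMS911543 persistent, SAR302503 persistent and naive groups, while all SAR302503 persistent libraries lay below all naive ones. The table also lists ATF4 pseudogenes, of which ATF4P3 had 1050 ± 133 reads in the INC424 persistent line, 481.8 ± 39.7 in the BMS911543 persistent line and 312 ± 22.1 at 48 h; how reads were divided between ATF4 and these copies is not given in the sources used here.

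ATF3, a stress-induced factor that dimerises with other leucine zipper proteins, had 749.6, 714.4 and 733.7 reads in the INC424 persistent libraries. It had 228.9, 211.4 and 198.2 in the BMS911543 persistent libraries and 80.63, 53.38 and 51.07 at 48 h. None of these 3 groups overlapped. The log2 difference was 1.78 (SE 0.26, adjusted p = 3.6e-05) against the BMS911543 persistent line and 3.58 (SE 0.26, adjusted p = 6.3e-10) against 48 h, or 1.21 (adjusted p = 0.013) with each group set against its own control. ATF3 was lowest at 48 h and highest in the INC424 persistent line, 11.9-fold apart, and the CYT387 persistent and naive groups overlapped just below the top.

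DDIT3 encodes CHOP, the partner of ATF4 associated with prolonged stress. It had 1564, 1582 and 1892 reads in the INC424 persistent libraries, 634.6, 734.9 and 913.8 in the BMS911543 persistent libraries and 492.2, 520.2 and 583.8 at 48 h. The INC424 persistent libraries lay above both other groups but below all naive libraries, which reached 2206, 2733 and 2857. The difference from the BMS911543 persistent line was 1.15 on the log2 scale (SE 0.32, adjusted p = 0.015). This call was lost without replicate 1 of the BMS911543 persistent line (adjusted p = 0.071), without its replicate 2 (0.05) and without replicate 3 of the INC424 persistent line (0.066); without library 2 of the CYT387 persistent line the adjusted p was 7.5e-06. Against 48 h the log2 difference was 1.65 (SE 0.32, adjusted p = 0.00039), but with each group set against its own control it turned to -1.34 (adjusted p = 0.027). DDIT3 overlaps MARS, the methionyl-tRNA synthetase gene on the other strand, and MARS itself had 17240 ± 504 reads in the INC424 persistent line, 6852 ± 247 in the BMS911543 persistent line and 4243 ± 169 at 48 h. Whether counting used the strand is not given in the sources used here, and without strand the reads of the 2 genes cannot be told apart where they overlap.

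ATF5, a leucine zipper factor related to ATF4 and controlled by eIF2 alpha phosphorylation in the same manner, was not called in either comparison. It had 1556, 1505 and 1485 reads in the INC424 persistent libraries, 1574, 1714 and 1596 in the BMS911543 persistent libraries and 1308, 1368 and 1332 at 48 h. The INC424 persistent libraries fell between the other groups with no overlap, and the log2 differences were -0.10 (95% confidence interval -0.42 to 0.22, adjusted p = 0.72) and 0.18 (-0.14 to 0.50, adjusted p = 0.41). ATF5 ordered the groups unlike the other genes: it was lowest in the SAR302503 persistent line at 683.5 ± 100 and highest with DMSO at 2037 ± 237. ATF5 overlaps NUP62 and IL4I1 on the other strand, and NUP62 was counted at 6577 to 8959 on group average, so the same limit on strand holds.

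TRIB3, a pseudokinase induced by ATF4 and CHOP that binds ATF4 and restrains it, had 3026, 3094 and 3494 reads in the INC424 persistent libraries. The BMS911543 persistent libraries had 782.4, 689.6 and 657.7, and those at 48 h had 315, 290.2 and 372.5. The groups did not overlap. TRIB3 was higher by 2.17 on the log2 scale (SE 0.16, adjusted p = 3.3e-09) than in the BMS911543 persistent line and by 3.30 (SE 0.16, adjusted p = 1.1e-12) than at 48 h, or 1.04 (adjusted p = 0.0013) with own controls. Naive cells had still more, with 5379, 4253 and 4682 reads.

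CHAC1 encodes a gamma-glutamyl cyclotransferase that degrades glutathione, and it showed the widest range of the 10 genes. The INC424 persistent libraries held 2753, 2182 and 3071 reads, the BMS911543 persistent libraries 132.2, 122.8 and 97.58, and the 48 h libraries 0.9376, 9.706 and 1.001. Those last values correspond to 1, 10 and 1 whole reads. The INC424 persistent mean was 22.7 times that of the BMS911543 persistent line, a log2 difference of 4.49 (SE 0.44, adjusted p = 2.3e-07). Against 48 h the log2 difference was 9.58 (SE 0.44, adjusted p = 5.1e-13), 10.39 without 48 h replicate 2, and 4.91 (adjusted p = 3e-06) with each group set against its own control. Summed over libraries, 8867 reads stood against 12, a ratio of 689 with a 95% interval of 394 to 1330 that covers counting error only. CHAC1 fell in steps without overlap from DMSO (37.35 ± 12.8) to 4 h of INC424 (12.09 ± 2.86) to 48 h (3.882 ± 5.04). The last step was barely free of overlap, with 9.921 in the lowest 4 h library and 9.706 in the highest 48 h library.

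DDIT4 encodes REDD1, an inhibitor of the growth kinase complex mTORC1 that glucocorticoids and hypoxia also induce. The INC424 persistent libraries held 10370, 7254 and 10620 reads, against 1465, 1463 and 1304 in the BMS911543 persistent libraries and 976, 858 and 1154 at 48 h. All INC424 persistent libraries were above both groups. The mean was 6.67 times that of the BMS911543 persistent line (log2 difference 2.72, SE 0.18, adjusted p = 6.5e-10), and the log2 difference from 48 h was 3.23 (SE 0.18, adjusted p = 9.4e-12). With each group set against its own control the latter was 0.01 (adjusted p = 0.98). DDIT4 was higher still in the CYT387 persistent line, with 12340, 14380 and 13580 reads, which made that line the highest group for this gene.

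SESN2, a sestrin that senses leucine and likewise restrains mTORC1, had 2474, 2488 and 2714 reads in the INC424 persistent libraries. It had 543.5, 344.3 and 416.8 in the BMS911543 persistent libraries and 249.4, 229.1 and 306.4 at 48 h. The INC424 persistent libraries were the highest of all 24. The mean was 5.88 times that of the BMS911543 persistent line (log2 difference 2.58, SE 0.16, adjusted p = 2.1e-10), and the log2 difference from 48 h was 3.29 (SE 0.16, adjusted p = 1.1e-12). With each group set against its own control the latter was 0.20 (adjusted p = 0.54).

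ASNS, asparagine synthetase, had 4427, 5418 and 5191 reads in the INC424 persistent libraries, 375.7, 440.9 and 417.8 in the BMS911543 persistent libraries and 243.8, 201.9 and 322.4 at 48 h. The INC424 persistent libraries again exceeded all others. The mean was 12.2 times that of the BMS911543 persistent line (log2 difference 3.60, SE 0.14, adjusted p = 4.3e-13) and 19.6 times that at 48 h (4.31, SE 0.14, adjusted p = 2.5e-15). With each group set against its own control the latter was 3.38 (adjusted p = 4e-11). Unlike the other genes, ASNS separated the BMS911543 persistent and 48 h groups from the remaining 6, whose means lay between 2011 ± 107 with DMSO and 5012 ± 519.

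STC2, which encodes the secreted glycoprotein stanniocalcin 2, was not called in either comparison. It had 24.95, 50.24 and 24.56 reads in the INC424 persistent libraries, 13.68, 18.12 and 19.31 in the BMS911543 persistent libraries and 17.81, 14.56 and 26.03 at 48 h. The INC424 persistent and 48 h libraries overlapped. The log2 differences were 0.86 (95% confidence interval -0.65 to 2.37, adjusted p = 0.48) and 0.70 (-0.81 to 2.21, adjusted p = 0.52). Naive cells held 338.7, 285.7 and 302.7 reads. In the CYT387 persistent line the libraries held 125.5, 2116 and 167.9 reads, and the high value is library 2, which carried the epithelial, stroma and vessel markers. Library 3 of the SAR302503 persistent line (119.8 reads) and library 2 of the INC424 persistent line (50.24) likewise had the highest STC2 of their lines. Both were the richest of their lines in squamous markers (0.0971% and 0.0241%). In the naive and 4 h INC424 groups the library richest in squamous markers did not hold the most STC2. The part of these markers in STC2 was not tested.

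**Figure D2:**
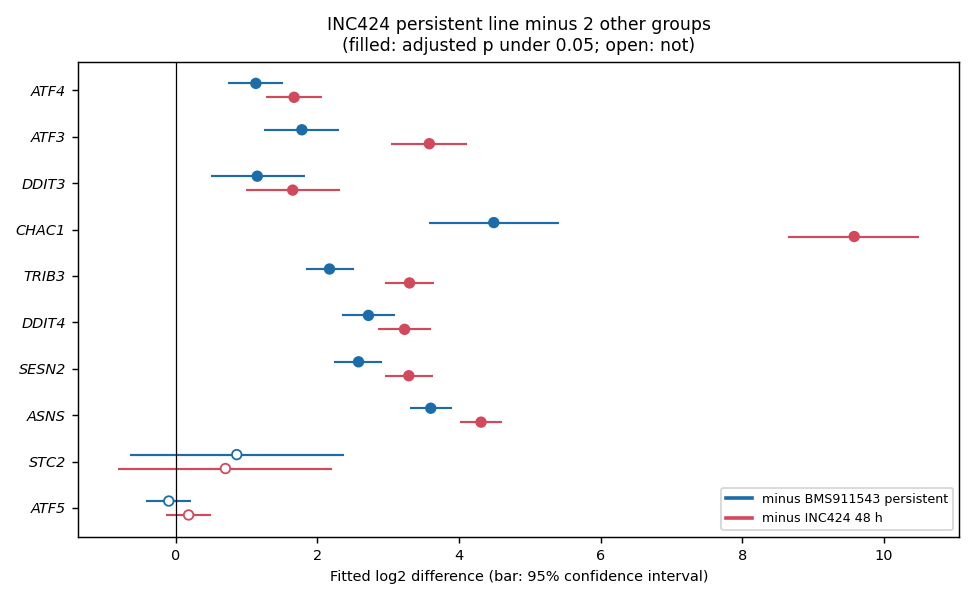
Fitted log2 difference of the INC424 persistent line from the BMS911543 persistent line (blue) and from 48 h of INC424 (red) for each gene, with 95% confidence intervals and no own-control adjustment. Filled points passed an adjusted p of 0.05; the open points are STC2 and ATF5. The point farthest right is CHAC1 against 48 h, at 9.58.

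The summed share of epithelial markers was higher in all INC424 persistent than in all BMS911543 persistent libraries, and overlapped with that at 48 h. The 10 squamous markers summed to 0.0039% to 0.0241% of reads in the INC424 persistent libraries, with at most 1 marker at 0, to 4.85e-05% to 0.00136% in the BMS911543 persistent libraries, with up to 7 at 0, and to 0.00016% to 0.0202% at 48 h, with up to 4 at 0. Of the 10, 1 was called higher than in the BMS911543 persistent line, where 8.73% of all genes tested were. Without the 4 libraries richest in these markers, all 8 calls on the ATF4 axis genes remained in each comparison. The lineage markers took 0.448% to 0.517% of reads in the INC424 persistent libraries, 0.452% to 0.498% in the BMS911543 persistent libraries and 0.84% to 0.862% at 48 h. Single lineage markers still differed between the INC424 and BMS911543 persistent lines. Among them PF4 was higher in the INC424 persistent line (6.41, adjusted p = 3.4e-06) and CD34 lower (-1.44, adjusted p = 1.5e-09). In bulk RNA, a change in the share of cells and a change in RNA per cell cannot be told apart.

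The place of each line relative to naive cells differed. In the BMS911543 persistent line 9 of the 10 genes were lower than in naive cells (14.2% of all genes tested) and 0 higher (10.4%), with a median log2 difference of -1.86. ASNS and STC2 fell most, by 3.22 (adjusted p = 2.3e-13) and 4.11 (adjusted p = 0.00019), and ATF4 fell by 0.83 (adjusted p = 0.0023). ATF5 was not called, at -0.23 (adjusted p = 0.3). All 3 BMS911543 persistent libraries lay below all 9 libraries of the other persistent lines for 6 genes, ATF3, TRIB3, CHAC1, DDIT4, SESN2 and ASNS, where 6.0% of all genes tested did so. ATF5 lay above all 9.

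In the INC424 persistent line 3 genes were higher than in naive cells (9.95% of all genes tested) and 2 lower (12.5%). CHAC1 rose by 1.5 (adjusted p = 0.017), DDIT4 by 1.22 (adjusted p = 2.5e-05) and SESN2 by 0.63 (adjusted p = 0.006), while TRIB3 fell by 0.57 (adjusted p = 0.013) and STC2 fell by 3.26 (adjusted p = 0.002). Without library 2 of the CYT387 persistent line, which enters through the shared spread alone, 9 were called. The share of all genes called in that fit is not given here, so the rise is not a result about these genes alone. ATF4 (0.30, adjusted p = 0.029) and ASNS (0.39, adjusted p = 0.03) joined the higher genes. DDIT3 (-0.63, adjusted p = 0.0038) and ATF5 (-0.34, adjusted p = 0.025) joined the lower. CHAC1 lost its call without replicate 1 (adjusted p = 0.054) or 3 (0.068) of the INC424 persistent line, and TRIB3 without INC424 persistent replicate 1 (0.054) or naive replicate 1 (0.066). Without replicate 1 of the INC424 persistent line, ASNS was also called (0.47, adjusted p = 0.047).

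In the CYT387 persistent line 1 gene, DDIT4, was higher than in naive cells (1.75, adjusted p = 3.8e-07; 11.2% of all genes tested), and 4 were lower (11.1%). TRIB3 fell by 0.83 (adjusted p = 0.00093), ASNS by 0.56 (adjusted p = 0.0085), ATF5 by 1.07 (adjusted p = 3.4e-05) and SESN2 by 0.47 (adjusted p = 0.04). Library 2 of this line held 11230 reads of ATF4 and 612.2 of DDIT3, against 23920 and 22360 of ATF4 and 2327 and 2267 of DDIT3 in the other libraries. Without it 4 genes were called, with DDIT4 at 1.70 (adjusted p = 6.6e-07), and SESN2 was no longer among them (-0.37, adjusted p = 0.13). The share of all genes called in that fit is not given here. The SESN2 call was also lost without any 1 of the naive libraries (adjusted p = 0.062 to 0.12). Without CYT387 persistent replicate 1, ATF4 (-0.51, adjusted p = 0.048) and DDIT3 (-1.13, adjusted p = 0.014) were called lower, and so was DDIT3 without replicate 3 (-1.11, adjusted p = 0.016).

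In the SAR302503 persistent line 4 genes were lower than in naive cells (10.6% of all genes tested) and 0 higher (8.70%). DDIT3 fell by 1.21 (adjusted p = 0.0095), TRIB3 by 1.07 (adjusted p = 4.8e-05), STC2 by 3.02 (adjusted p = 0.005) and ATF5 by 1.49 (adjusted p = 2.3e-07). Without replicate 3 of that line, which held 119.8 reads of STC2 beside 21.87 and 19.06, STC2 was at -3.85 (adjusted p = 0.00067), and SESN2 was called as well (-0.55, adjusted p = 0.021). Replicate 3 also had the highest share of squamous markers in that line, 0.0971% of reads. ATF4 was not called (-0.43, adjusted p = 0.11), but was called lower under 3 of 22 alternatives. With each compared library left out in turn, its adjusted p was 0.057 to 0.35.

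**Figure D3:**
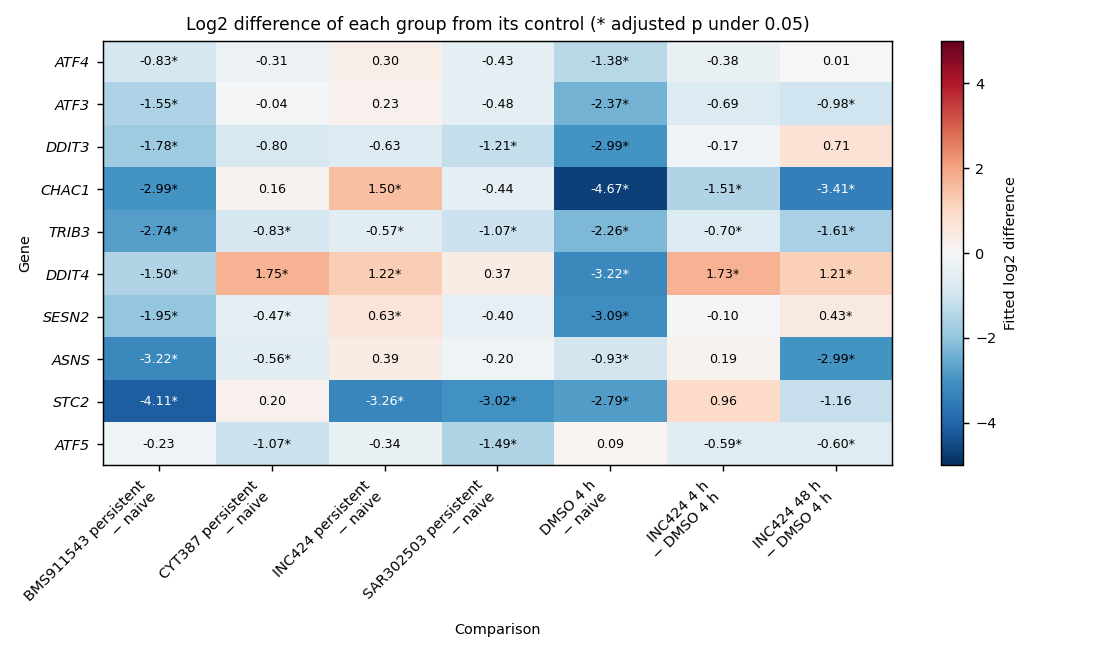
Fitted log2 difference of each gene (rows) in each group from its control (columns), with blue lower and red higher; an asterisk marks an adjusted p under 0.05. The BMS911543 persistent and DMSO columns are blue from ATF4 down to STC2, and DDIT4 is red in the CYT387 and INC424 persistent lines and after INC424.

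In direct comparisons of the lines ATF4, CHAC1, SESN2 and ASNS were higher in the INC424 persistent line than in each of the other lines, although the calls on ATF4 and CHAC1 against the CYT387 persistent line were lost without library 2 of that line (adjusted p = 0.11 and 0.081). Against the SAR302503 persistent line 7 genes were higher (6.08% of all genes tested) and 0 lower (6.65%): ATF4, TRIB3, CHAC1, DDIT4, SESN2, ASNS and ATF5, with log2 differences from 0.50 for TRIB3 (adjusted p = 0.047) to 1.94 for CHAC1 (adjusted p = 0.0047). The TRIB3 call was lost without any 1 of the INC424 persistent libraries (adjusted p = 0.082 for replicate 2, 0.083 for replicate 1 and 0.18 for replicate 3) or without SAR302503 persistent replicate 1 (0.21) or 2 (0.17), and the ATF4 call (0.74, adjusted p = 0.011) without SAR302503 persistent replicate 2 (0.068). ATF3 (0.72, adjusted p = 0.072) and DDIT3 (0.59, adjusted p = 0.26) were not called. They were called higher under 5 and 2 of 22 alternatives, though not when any single compared library was left out.

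Against the CYT387 persistent line 5 were higher (10.6% of all genes tested), namely ATF4, CHAC1, SESN2, ASNS and ATF5, and 2 lower (13.8%), DDIT4 and STC2. SESN2 differed by 1.1 (adjusted p = 2.5e-05), ASNS by 0.94 (adjusted p = 4.3e-05), ATF5 by 0.73 (adjusted p = 0.0012) and STC2 by -3.46 (adjusted p = 0.0013). Without library 2 of the CYT387 persistent line 4 calls remained, SESN2, ASNS and ATF5 higher and STC2 lower, at 1.01, 1.03, 0.96 and -2.17. The share of all genes called in that fit is not given here. Without replicate 1 of the CYT387 persistent line STC2 was at -4.21. The calls on ATF4 (0.61, adjusted p = 0.02), CHAC1 (1.34, adjusted p = 0.031) and DDIT4 (-0.53, adjusted p = 0.036) were lost without library 2 (adjusted p = 0.11, 0.081 and 0.077). They were also lost without INC424 persistent replicate 3 for ATF4 (0.07) and CHAC1 (0.1), without INC424 persistent replicate 1 for CHAC1 (0.083), and without INC424 persistent replicate 2 (0.21) or CYT387 persistent replicate 3 (0.06) for DDIT4.

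Short exposure to INC424 moved the genes in different directions. After 4 h DDIT4 was higher than with DMSO, by 1.73 (adjusted p = 1.7e-06), the 1 higher gene among the 10 (4.88% of all genes tested). TRIB3 (-0.70, adjusted p = 0.0084), CHAC1 (-1.51, adjusted p = 0.036) and ATF5 (-0.59, adjusted p = 0.018) were lower (3.49%). The CHAC1 call was lost without DMSO replicate 2 or 3 or any 1 of the INC424 4 h libraries (adjusted p = 0.12, 0.16, 0.054, 0.14 and 0.11), and the ATF5 call without DMSO replicate 2 or 3 or INC424 4 h replicate 1 or 3 (0.068, 0.093, 0.059 and 0.082). The number called went from 4 to 2 without DMSO replicate 3, INC424 4 h replicate 1 or INC424 4 h replicate 3. The shares of all genes called in those fits are not given here. Without DMSO replicate 2, ATF3 was called lower (-1.01, adjusted p = 0.017), and without library 2 of the CYT387 persistent line ATF4 was (-0.38, adjusted p = 0.014).

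After 48 h DDIT4 (1.21, adjusted p = 2.2e-05) and SESN2 (0.43, adjusted p = 0.044) were higher than with DMSO for 4 h (17.6% of all genes tested). ASNS fell by 2.99 (adjusted p = 4e-12), CHAC1 by 3.41 (adjusted p = 3.9e-06), TRIB3 by 1.61 (adjusted p = 1.3e-07), ATF3 by 0.98 (adjusted p = 0.0051) and ATF5 by 0.60 (adjusted p = 0.0039), 5 lower genes beside 16.4% of all genes tested. ATF4 did not pass, at 0.01 (95% confidence interval -0.38 to 0.40). ASNS did not pass after 4 h, with libraries of 2106, 2264 and 2504 reads beside 2082, 2062 and 1887 with DMSO, and was lower at 48 h than at 4 h by 3.18 (adjusted p = 5.6e-12). The SESN2 call was lost without any 1 of the DMSO libraries (adjusted p = 0.078 to 0.1) or 48 h replicate 1 (0.072) or 3 (0.21), and the ATF3 call without DMSO replicate 1 (0.057), the DMSO library with 208.4 reads beside 75.57 and 109.1. Without 48 h replicate 2 CHAC1 was at -4.22. Without library 2 of the CYT387 persistent line DDIT3 (0.71, adjusted p = 0.00087) was also called higher and STC2 (-1.16, adjusted p = 0.045) lower.

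From 4 h to 48 h, 1 gene was higher (SESN2, 0.53, adjusted p = 0.029; 7.03% of all genes tested) and 3 were lower (CHAC1, TRIB3 and ASNS; 7.69%). CHAC1 was at -1.90, and at -2.71 without 48 h replicate 2. Its call was lost under 3 of 22 alternatives, over which the difference ran from -2.71 to -0.72. The SESN2 call was lost without replicate 1 or 3 of the 4 h group (adjusted p = 0.098 and 0.11) or of the 48 h group (0.061 and 0.16). DDIT4 was called lower without replicate 3 of the 4 h group (-0.73, adjusted p = 0.012) or of the 48 h group (-0.63, adjusted p = 0.049). Without library 2 of the CYT387 persistent line 8 were called, 3 higher and 5 lower. The share of all genes called in that fit is likewise not given here. ATF4 (0.39, adjusted p = 0.0079) and DDIT3 (0.89, adjusted p = 0.00024) joined the higher genes. DDIT4 (-0.52, adjusted p = 0.03) and STC2 (-2.12, adjusted p = 0.0015) joined the lower.

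The inhibitor-free controls were themselves apart. Naive cells with DMSO for 4 h were lower than naive cells for 9 of the 10 genes (14.6% of all genes tested) and 0 higher (11.4%), with a median of -2.58; CHAC1 fell by 4.67 (adjusted p = 1.1e-07), DDIT4 by 3.22 (adjusted p = 6.1e-11), SESN2 by 3.09 (adjusted p = 3.4e-11) and ASNS by 0.93 (adjusted p = 5.7e-05). ATF5 was not called, at 0.09 (adjusted p = 0.73). For ATF4, DDIT3, CHAC1 and SESN2 all 9 libraries of the DMSO and short INC424 groups lay below all 15 libraries of naive cells and persistent lines, which 0.238% of all genes tested did. The labels do not say how these sets of cultures were handled apart from the additions, and the vehicle cannot be told apart from other differences between the sets.

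The difference between the INC424 persistent line and 48 h was therefore also taken with each group set against its own control. This was naive cells for the line and DMSO for 4 h for the exposure. The labels give no DMSO control at 48 h, so time and inhibitor cannot be told apart in the second pair. On that measure 4 genes were higher in the persistent line (14.7% of all genes tested) and 1 lower (17.1%). ASNS differed by 3.38 (SE 0.20, adjusted p = 4e-11), CHAC1 by 4.91 (SE 0.63, adjusted p = 3e-06), ATF3 by 1.21 (SE 0.36, adjusted p = 0.013) and TRIB3 by 1.04 (SE 0.23, adjusted p = 0.0013). DDIT3 turned from higher to lower, at -1.34 (SE 0.45, adjusted p = 0.027). DDIT4 was at 0.01 (95% confidence interval -0.52 to 0.54), SESN2 at 0.20 (-0.27 to 0.68) and ATF4 at 0.29 (-0.26 to 0.84), and these 3 calls ended. Without library 2 of the CYT387 persistent line STC2 was lower as well (-2.09, adjusted p = 0.012), while the other 9 genes kept their calls. In that fit 20.4% of all genes tested were higher and 22.4% lower.

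**Figure D4:**
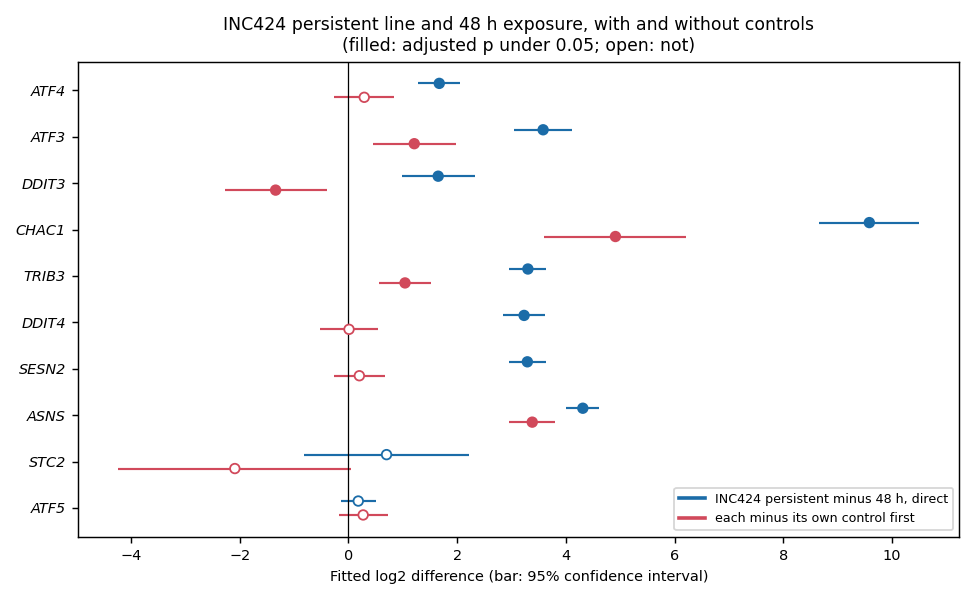
Fitted log2 difference of the INC424 persistent line from 48 h of INC424, taken directly (blue) or with each set against its own control first (red). The controls were naive cells for the line and DMSO for 4 h for the exposure. Bars are 95% confidence intervals, and filled points mark an adjusted p under 0.05. ASNS and CHAC1 stay high on both measures, at 3.38 and 4.91 on the second, whereas DDIT4 and SESN2 move to 0.01 and 0.20 and DDIT3 to -1.34.

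The 10 genes did not share a single order over the groups. Pearson's r between a gene and the mean of the other 9, over 8 group means of standardised log2 values, was 0.97 for TRIB3, 0.96 for ATF3, 0.94 for CHAC1, 0.92 for ATF4 and SESN2, 0.88 for DDIT3, 0.79 for DDIT4, 0.68 for ASNS, 0.49 for STC2 and -0.25 for ATF5. These 8 points share libraries and the size factors behind every gene, and the values are a description. On the mean standardised level naive cells stood highest at 0.97, followed by the INC424 persistent line at 0.86 and the CYT387 persistent line at 0.65, with 48 h of INC424 lowest at -1.04. Among 13981 other genes ranked, ADM2 was nearest to that mean (r = 0.979), from 25.97 reads at 48 h to 1082 in naive cells, followed by JDP2 (0.967), TOMM20 (0.961), ZCCHC8 (0.960) and NDUFA11 (0.955).

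Other genes of amino acid supply stood in the same direction as the 8. In this and the following lists, differences from 48 h were taken directly, with no own-control adjustment. The shares of all genes tested were 8.73% higher and 7.79% lower against the BMS911543 persistent line, and 14.5% and 15.4% against 48 h. Of 13 enzymes of amino acid and one-carbon metabolism, 11 were higher in the INC424 persistent than in the BMS911543 persistent line and 0 lower (median 2.00), and 12 were higher than at 48 h (median 2.32). PSAT1, an enzyme of serine synthesis, had 7340 ± 499 reads against 726.2 ± 99.8 and 345.6 ± 51, log2 differences of 3.34 (adjusted p = 7.8e-12) and 4.41 (adjusted p = 2.2e-14). PHGDH, which opens that pathway, differed by 4.07 and 3.73, and CBS, of transsulfuration, by 3.03 and 3.90. Of 11 amino acid transporters, 10 were higher than in the BMS911543 persistent line (median 1.24) and 9 higher than at 48 h (median 1.91), with 0 lower. SLC7A11, the cystine importer that feeds the glutathione CHAC1 degrades, differed by 0.96 (adjusted p = 0.00026) and 2.80 (adjusted p = 2.1e-11). Of 13 cytosolic tRNA synthetases 10 (median 0.74) and 13 (median 1.33) were higher, with AARS at 1.54 and 2.21.

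Of 17 other known ATF4 and CHOP targets tested, 9 were higher and 1 lower than in the BMS911543 persistent line (median 0.76), and 10 were higher and 3 lower than at 48 h (median 0.98). The shares of all genes tested were again 8.73% and 7.79% in the first comparison, and 14.5% and 15.4% in the second. INHBE, an inhibin subunit, had 976.3 ± 39.9 reads against 3.211 ± 1.92 and 6.843 ± 3.59, log2 differences of 7.99 (adjusted p = 6e-12) and 7.09 (adjusted p = 7.5e-12). The controls differed too, with 729.2 ± 70 INHBE reads in naive cells and 32.95 ± 15.9 with DMSO for 4 h. Of 16 leucine zipper partners and relatives, 4 were higher and 4 lower than in the BMS911543 persistent line, and 6 higher and 4 lower than at 48 h. The ATF4 partner CEBPG differed by 0.70 (adjusted p = 0.0012) and 1.88 (adjusted p = 1.2e-09), and JDP2 by 1.32 and 3.02. Both belong to the higher genes, and none of the lower ones is named under the rule given below.

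The counts for lists upstream of ATF4 and of other stress pathways stand beside the same shares of all genes tested: 8.73% higher and 7.79% lower against the BMS911543 persistent line, and 14.5% and 15.4% against 48 h. Of 12 genes for eIF2 alpha kinases, phosphatase subunits and eIF2B, 2 were higher and 3 lower than in the BMS911543 persistent line (median 0.03), and 4 were higher than at 48 h (median 0.24). Of 18 genes of the IRE1 and ATF6 arms, 1 was higher and 1 lower (median 0.07), and 6 higher and 1 lower (median -0.16). XBP1 differed by 0.69 (adjusted p = 0.00073) and 0.84 (adjusted p = 3.6e-05). Among 17 p53 targets tested, a list of interest because p53 also induces SESN2, 3 were higher and 4 lower (median 0.04), and 4 each way at 48 h (median 0.11). Among 16 hypoxia targets, of interest for DDIT4, 1 was higher and 4 lower (median -0.30), and 2 higher and 10 lower (median -0.95). PFKFB4, a regulator of glycolysis, fell by 0.63 (adjusted p = 0.0057) and by 2.20 (adjusted p = 3e-10). Of 13 glucocorticoid and FOXO targets tested 3 were higher and 2 lower (median 0.42), and 3 higher and 6 lower (median -0.07).

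Family relatives of these genes were mixed. Of 6 tested, 0 were higher and 2 lower than in the BMS911543 persistent line (median -0.52), beside 8.73% and 7.79% of all genes tested. Against 48 h, 1 was higher and 2 lower (median -0.47), beside 14.5% and 15.4%. TRIB2, a pseudokinase related to TRIB3, had 4755 ± 356 reads in the INC424 persistent line, 13580 ± 214 in the BMS911543 persistent line and 11260 ± 180 at 48 h, log2 differences of -1.52 (adjusted p = 7.2e-07) and -1.25 (adjusted p = 3.5e-06). TRIB1 differed by -1.47 (adjusted p = 4.9e-05) and 0.19 (adjusted p = 0.56). The sestrin SESN1 was called in neither (0.17 and 0.31), and SESN3 fell by 1.14 against 48 h (adjusted p = 5.8e-05). CHAC2 differed by 0.07 (adjusted p = 0.85) and 1.00 (adjusted p = 0.00061), beside 4.49 and 9.58 for CHAC1. STC1 was at 3.848 reads or fewer on average outside the CYT387 persistent line.

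**Figure D5:**
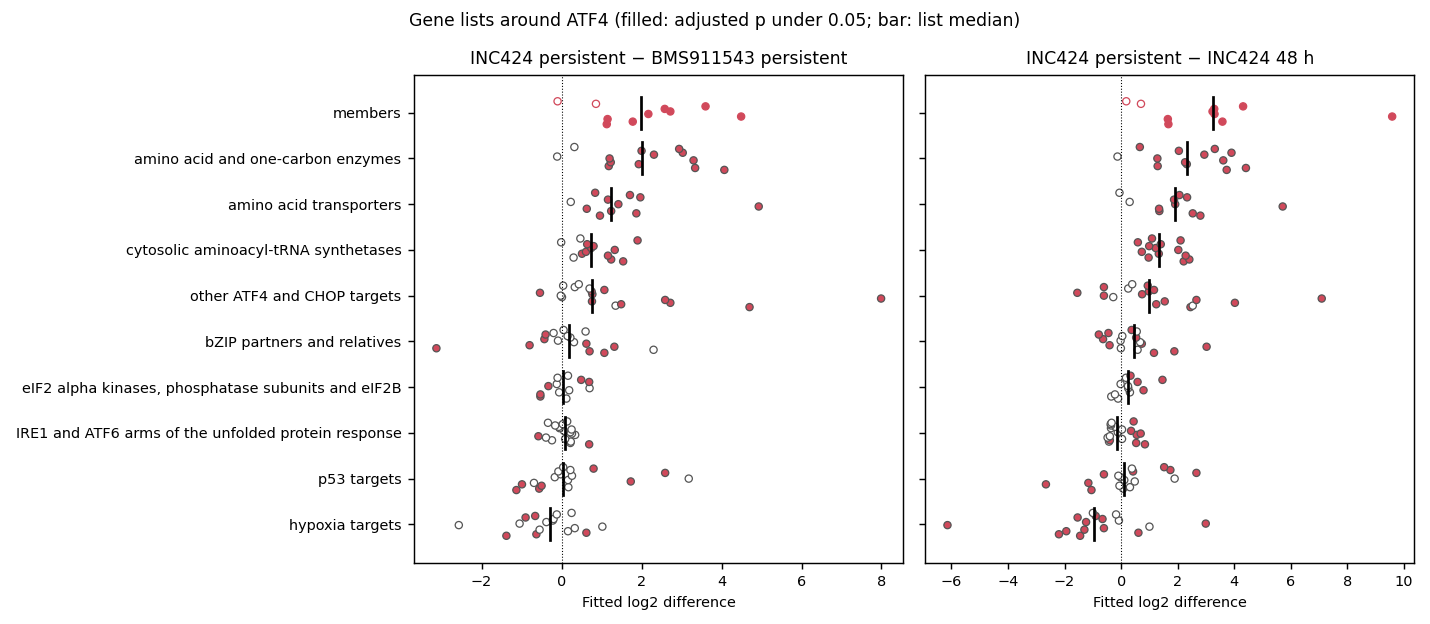
Fitted log2 difference of the genes of each list between the INC424 persistent line and the BMS911543 persistent line (left) or 48 h of INC424 (right). No own-control adjustment was made. Points are genes, filled where the adjusted p is under 0.05, and the bar is the list median. The members and the amino acid lists lie to the right of 0 in both panels, with member medians of 1.98 and 3.26, whereas the hypoxia list has medians of -0.30 and -0.95.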

How the data were processed

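The deposited table holds 1 normalised signal per gene and library, which the authors obtained by scaling read counts with a library size factor, as the values themselves show. DESeq 1.10.1, HTSeq 0.5.3p3 and BWA 0.7.5.1 appear in the submitters' processing notes beside GRCh37 and hg19, with no role stated. Values in 21 libraries were whole multiples of a step (100% within 0.01), which gave whole reads; in the other 3 the step was within 0.01 of 1. Values were log2-transformed after adding 1, and genes with at least 10 in at least 3 libraries were tested in a single limma 3.58.1 fit (R 4.3.3, trend, 8 groups, 16 residual degrees of freedom, two-sided, Benjamini-Hochberg, threshold 0.05). Samples were grouped by title, and library numbers are replicate numbers from the titles. On simulated counts for the INC424 persistent against the BMS911543 persistent line (18665 genes), 14.5%, 89.1% and 100% of genes changed 1.5, 2 and 4 times were recovered and 8 unchanged genes called; against 48 h (19009 genes) these were 18.9%, 89.2%, 100% and 3.

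Members and gene lists were chosen with earlier results of these data known. From each other list, up to 3 genes with the largest difference past the threshold in the main comparisons (mean of at least 50) could be named, all family relatives, and the 5 genes of most like pattern. Alternatives tried were a filter at 50 or none, a pseudocount of 10 or 0.5, upper-quartile or TMM scaling, robust or trend-free empirical Bayes, weights per sample, fits limited to the compared groups, a replicate block, a term for the 9 libraries run again or on 2 lanes, edgeR 4.0.16 and DESeq2 1.42.0 on recovered reads, each library left out, and the libraries richest in epithelial RNA left out. Setting each group against its own control, with and without library 2 of the CYT387 persistent line, was added after seeing the data. Same-numbered libraries deviated together, with every pair over 0.1, in the comparison of the INC424 with the CYT387 persistent line alone (r = 0.105, 0.311 and 0.23); this pairing comes from the data, since the labels give numbers only. Promoter windows are from RefSeq (GRCh38.p14).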

Additional observations from a re-analysis of the deposited data

Results flagged for a closer look

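In 3 genes the INC424 persistent and BMS911543 persistent lines departed from naive cells in opposite directions, each departure passing the threshold. The share of all genes tested that did so is not given here, so the count is not a result about these genes alone. Naive cells cancel in the difference between the departures, which is the difference between the lines already given above (limma, adjusted over all genes tested). Since the genes were chosen for calls in opposite directions, that difference was bound to be large, and its p-value adds no support. CHAC1 was higher than naive by 1.5 in the INC424 persistent line (log2) and at -2.99 from it in the BMS911543 persistent line, 4.49 apart (adjusted p = 2.3e-07). DDIT4 stood at 1.22 and -1.5, 2.72 apart (adjusted p = 6.5e-10), and SESN2 at 0.63 and -1.95, 2.58 apart (adjusted p = 2.1e-10). The CHAC1 difference of the INC424 persistent line from naive cells lost its call without replicate 1 (adjusted p = 0.054) or 3 (0.068) of that line.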

How the results depend on the processing

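Over 12 comparisons, 10 genes and all alternatives, 2459 of 2650 fitted differences kept their direction and their side of the threshold, 86 lost the call, 79 gained one and 26 changed sign. The number of genes called stayed within 1.5 times in 5 comparisons. Apart from the fits with own controls, the shares of all genes called under the alternatives are not given here. A change in these numbers is therefore not a result about these genes alone. Against the BMS911543 persistent line it was 7 to 8 when each library was left out, and 8 with the replicate block, edgeR and DESeq2; against 48 h it was 8 under every alternative except own controls. There it was 5, with DDIT3 turning to -1.34 and STC2 to -2.09 without passing (adjusted p = 0.13). When library 2 of the CYT387 persistent line was also left out, 4 were higher and 2 lower, beside 20.4% and 22.4% of all genes tested. In these comparisons same-numbered libraries did not deviate together (r from -0.1 to 0.09 and from -0.21 to 0.05). Every pair was over 0.1 in 1 comparison, the INC424 with the CYT387 persistent line (r from 0.1 to 0.31), where the replicate block gave 7 calls, as without it. The replicate block changed no call on these genes in any comparison. Against the CYT387 persistent line, 3 were called with the compared groups alone, 4 without the library richest in epithelial RNA and 4 to 7 with each library left out. Sample weights gave 4 against the SAR302503 persistent line, 9 for the INC424 persistent line against naive cells and 8 from 4 h to 48 h; for the last 2 comparisons the compared groups alone gave 8 and 7, and leaving out the library or the 4 libraries richest in epithelial RNA gave 9 and 8, while DESeq2 gave 7 from 4 h to 48 h. The CYT387 persistent line against naive cells had 1 with the compared groups alone, and 4 h against DMSO had 2 to 4 with each library left out. Apart from DDIT3 with own controls, the sign changes were in differences that did not pass in the reported fit. DDIT3 against the CYT387 persistent line was -0.43 with weights, -0.02 with edgeR, -0.05 with DESeq2, -0.46 to 0.51 with each library left out, and -0.46 and -0.42 without the richest library or 4. STC2 against the SAR302503 persistent line was -0.70 to 0.60 with each library left out and 0.27 without the 4. In the CYT387 persistent line against naive cells, STC2 was -1.01 with weights, -1.08 without the richest library or 4 and -1.08 to 0.95 with each left out, ATF4 was 0.04 and -0.51 to 0.04, and ATF3 -0.15 to 0.10. From DMSO to 48 h, ATF4 was -0.03 to 0.06 with each left out and -0.00 without the 4. From 4 h to 48 h, ATF5 was 0.01 with upper-quartile scaling, 0.02 with the repeat-run term and -0.06 to 0.04 with each left out. The causes were not tested. Upper-quartile scaling moved the higher calls, as a share of all calls against the SAR302503 persistent line, from 47.8% to 59.6%. Depth limits CHAC1 at 48 h, with 12 reads, and STC2, with 52 to 112 reads per group compared.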
